A study of Mus musculus with 21 samples.

Results

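The kidney proximal tubule takes back nearly all filtered amino acids through a small set of carriers. Neutral amino acids enter over the brush border with sodium through the SLC6 carriers, and glutamate and aspartate enter through Slc1a1. Cystine and the cationic amino acids use heteromers, in which a light subunit of the SLC7 family does the transport and a heavy subunit of the SLC3 family brings it to the membrane. The heavy subunit Slc3a1 works at the brush border and Slc3a2 at the basolateral side, where the amino acids leave for the blood. Inherited loss of these carriers gives aminoacidurias such as Hartnup disorder (Slc6a19), cystinuria (Slc3a1 and Slc7a9) and lysinuric protein intolerance (Slc7a7).

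The genes described here are Slc6a18, Slc6a19, Slc3a1, Slc3a2, Slc7a7, Slc7a8, Slc7a9, Slc1a1, Slc7a13 and Slc7a5, 10 of the 27179 genes counted in every library, taken as a named list. All 10 passed the filter on low counts that left 16377 genes for testing.

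RNA was sequenced from wildtype male C57BL/6J mice, from kidney cortex digested with enzymes and then enriched for podocytes, the filter cells of the glomerulus, with an antibody to nephrin on magnetic beads. The young group was 4 months old and untreated (6 libraries). Both other groups were 19.5 months old, the age called middle-aged, and were injected for 6 weeks with saline (7 libraries) or with 10 mg/kg MCC950, a small-molecule inhibitor of the NLRP3 inflammasome (8 libraries). The young mice had no injections, so age and injection cannot be told apart between young and saline. The study's methods list untreated controls of 4 months from a tissue archive. They do not say whether the sequenced young mice were among these, so a difference in source cannot be told apart either. No group combined the young age with MCC950, so age and drug were not crossed.

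All libraries were labelled podocyte, and all 12 podocyte markers on the list used were detected in every library. The fraction also held RNA of other cells. The summed level of 19 proximal tubule markers was 2291 to 6929 CPM (read counts scaled to a common library size with TMM factors, which correct for library composition) in the young, 1908 to 4959 CPM in the saline and 3632 to 8396 CPM in the MCC950 group, and no tubule marker was at 0 in any library. The 12 podocyte markers summed to 756 to 1665, 298 to 553 and 396 to 668 CPM in the same order. The transporter levels below are therefore levels in a mixed fraction, and in such bulk samples fewer cells of a type and less RNA per cell cannot be told apart. Total counts were 27375870 to 36827823 in the young, 45772937 to 84876399 in the saline and 35440472 to 58247271 in the MCC950 group, and 49.9% to 80.4% of them fell on 15 mitochondrial genes.

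Promoter sequence was at hand for 7 of the 10 genes: Slc6a19, Slc3a1, Slc3a2, Slc7a7, Slc7a8, Slc7a9 and Slc1a1. The 250 bases before each RefSeq start, 12 windows in all, were searched on both strands for CAAAGTCCA, a site of the tubule and liver factor HNF4, for GTTAAT, a half-site of HNF1, and for TGATGNAA, the amino acid response element bound by ATF4. The Slc3a1 window held the HNF4 letters from 39 to 31 bases before the start, as did 0.384% of the 32851 windows of all genes. The response element stood in 2 windows of Slc7a7 and in 3.45% of all windows, and the HNF1 letters stood in 1 other Slc7a7 window and in 6.43% of all windows. The windows of the other genes held none of the 3, which says only that these letters were not there. All windows of Slc6a19, Slc3a2, Slc7a9 and Slc7a7 lay inside the gene spans given below. They were chr13:73692637-73692886 for Slc6a19 and chr19:8713898-8714147 for Slc3a2. For these genes the sequence before the 5′ end of the span was not searched. Shown are 2 windows, each 5′ to 3′ up to the base before the start, with the match in capitals. The first is the Slc3a1 window (build GRCm38.p6, chr17:85028097-85028346, plus strand). The second is the Slc7a7 window that carries the response element without overlapping a GENCODE exon (chr14:54417945-54418194, minus strand). For both, the bases checked just after the start were in no GENCODE vM21 transcript of the gene. For the other Slc7a7 window with the element (chr14:54417703-54417952) they were.
Slc3a1: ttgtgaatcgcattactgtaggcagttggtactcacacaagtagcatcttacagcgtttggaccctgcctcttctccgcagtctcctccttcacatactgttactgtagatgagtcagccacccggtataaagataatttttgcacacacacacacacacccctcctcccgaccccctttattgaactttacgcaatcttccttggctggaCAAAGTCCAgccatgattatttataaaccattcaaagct
Slc7a7: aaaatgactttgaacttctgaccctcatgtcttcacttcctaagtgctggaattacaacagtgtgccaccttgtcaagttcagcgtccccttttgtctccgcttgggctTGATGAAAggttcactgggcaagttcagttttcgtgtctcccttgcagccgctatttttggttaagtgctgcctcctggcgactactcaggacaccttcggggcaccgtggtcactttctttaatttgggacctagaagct

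Levels between genes were compared per kilobase of exon. Slc7a13, the aspartate, glutamate and cystine carrier of the last tubule segment, had the highest mean in each group, at 41.3 ± 27.6 CPM per kb in the young (SD, n = 6), 34.5 ± 6.34 in the saline (n = 7) and 49.0 ± 20.3 in the MCC950 group (n = 8). Slc3a2 was next in each group, and Slc7a13 exceeded it in 4 of 6, 6 of 7 and 4 of 8 libraries, so the order of these neighbours was not fixed. Slc6a18, Slc3a1 and Slc7a8 followed, and their mean ± SD ranges overlapped in every group. Slc6a19, Slc7a7, Slc7a9 and Slc1a1 lay lower, and the mean ± SD ranges of neighbours among them overlapped too. Part of the exon length is shared with genes on the other strand for Slc1a1 (2631 of 8257 bases), Slc3a1 (601 of 2271) and Slc7a7 (232 of 3315). The strand setting of the counting was not given, so the places of these genes in the order are less certain. The mean of Slc7a5 was lowest in each group, at 1.59 ± 0.27 CPM per kb in the young, 2.51 ± 0.29 in the saline and 2.17 ± 0.53 in the MCC950 group, with a mean ± SD range clear of the gene above it in all 3 groups, although Slc1a1 exceeded it in only 6 of 7 saline libraries.

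**Figure D1:**
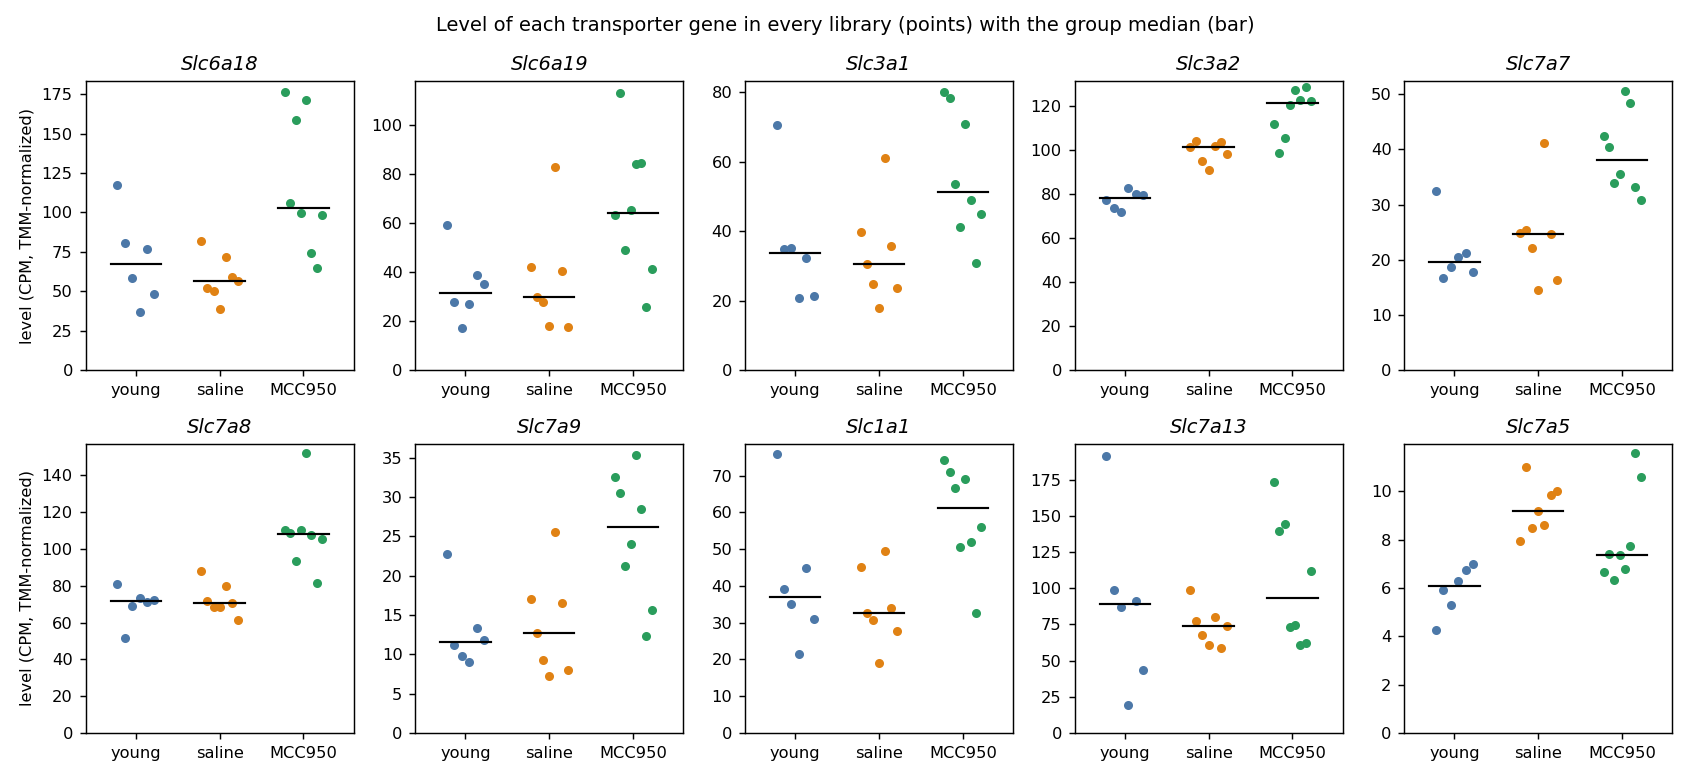
Level of each of the 10 genes in CPM (y axis, linear, from 0) in the 6 young, 7 saline and 8 MCC950 libraries, each point 1 library and each bar a group median. Slc3a2 and Slc7a5 were higher in all 7 saline libraries than in all 6 young ones, while for Slc7a8 all 8 MCC950 libraries lay above the young.

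The neutral carriers of the brush border lie next to each other on chromosome 13 (Slc6a18, 73661750 to 73678023, and Slc6a19, 73679745 to 73700780, GRCm38.p6, both on the minus strand). Slc6a18 (B0AT3), found in the later segments, had a lowest, median and highest level of 36.8, 67.4 and 117 CPM in the young group. In the saline group they were 39.0, 56.5 and 82.1 CPM. In the MCC950 group they were 64.7, 103 and 176 CPM, so 6 of the 8 treated libraries exceeded every saline value and all 8 the saline median. Slc6a18 rose 2.02-fold with MCC950 against saline (log2 1.02 ± 0.25, SE, edgeR quasi-likelihood test, adjusted p = 0.0105), and saline against young gave log2 -0.25 ± 0.26 (adjusted p = 0.525).

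Slc6a19 (B0AT1), the main neutral carrier of the first segment, had a lowest, median and highest level of 17.4, 31.5 and 59.4 CPM in the young group. The saline libraries gave 17.6, 30.1 and 83.1 CPM, where the highest, replicate 5, stood far above the others. The MCC950 libraries gave 25.7, 64.4 and 113 CPM. The groups overlapped, and 3 of the 8 treated libraries exceeded every saline value. The MCC950 against saline value was log2 0.83 ± 0.33 and missed the threshold (edgeR adjusted p = 0.0900), and without saline replicate 5 it was log2 1.17 (adjusted p = 0.0171). Saline against young gave log2 0.11 ± 0.36 (adjusted p = 0.854).

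The brush-border heteromer joins the heavy subunit Slc3a1 (rBAT, chromosome 17, 85028347 to 85064241, plus strand) to Slc7a9 (b0,+AT, chromosome 7, 35448727 to 35466034, plus strand) or, in the last segment, to Slc7a13 (AGT1, chromosome 4, 19818727 to 19842213, plus strand). For Slc3a1, the lowest, median and highest levels were 20.7, 33.6 and 70.4 CPM in young, 17.9, 30.5 and 60.9 CPM in saline and 30.8, 51.3 and 80.1 CPM in MCC950 libraries. All 8 MCC950 libraries were above the saline median but 5 were within the saline range. The value for MCC950 against saline was log2 0.75 ± 0.28 and missed the threshold (edgeR adjusted p = 0.0662). Its exons share 601 bases with Prepl on the other strand, and the strand setting of the counting was not given in the sources used here, so reads there cannot be assigned.

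Slc7a9, the light subunit for cystine and cationic amino acids, ran from 9.00 through a median of 11.5 to 22.8 CPM in the young group. It ran from 7.29 through 12.7 to 25.6 CPM in the saline and from 12.4 through 26.2 to 35.4 CPM in the MCC950 group. The groups overlapped, with 4 of the 8 treated libraries higher than any saline one. It rose 1.81-fold with MCC950 (log2 0.86 ± 0.27, edgeR adjusted p = 0.0364). This call was kept in 13 of the 21 fits that left out 1 library, and was lost without saline replicate 2, 3, 4 or 7 or MCC950 replicate 1, 2, 4 or 5 (log2 0.72 to 0.86, adjusted p from 0.0520 to 0.0870). Slc7a13 varied most in the young, from 19.4 through 89.1 to 191 CPM, and gave 58.7, 74.1 and 98.6 CPM in saline and 60.7, 93.3 and 174 CPM in MCC950 libraries. Its groups overlapped widely, and MCC950 against saline gave log2 0.51 ± 0.33 (adjusted p = 0.304).

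The basolateral heteromers share the heavy subunit Slc3a2 (4F2hc or CD98, chromosome 19, 8706882 to 8723369, minus strand), which most cell types carry. Slc3a2 levels were tight within groups, with 72.1, 78.4 and 82.7 CPM as lowest, median and highest in the young, 90.8, 101 and 104 CPM in the saline and 98.8, 121 and 128 CPM in the MCC950 group. The young and saline libraries did not overlap, and 7 of 8 MCC950 libraries lay above the highest saline one. Slc3a2 rose 1.28-fold from young to saline (log2 0.36 ± 0.07, edgeR adjusted p = 0.000726) and 1.18-fold from saline to MCC950 (log2 0.24 ± 0.06, adjusted p = 0.0150).

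Slc7a5 (LAT1, chromosome 8, 121881146 to 121907686, minus strand) carries large neutral amino acids and is best known from growing cells. Its levels were low, with 4.26, 6.10 and 6.98 CPM as lowest, median and highest in the young, 7.95, 9.19 and 11.02 CPM in the saline and 6.34, 7.38 and 11.6 CPM in the MCC950 group. Every saline library lay above every young one, whereas in the MCC950 group 6 of 8 values were under the saline minimum and 1 was over the saline maximum. Slc7a5 rose 1.58-fold from young to saline (log2 0.66 ± 0.14, edgeR adjusted p = 0.00232). The change from saline to MCC950 was log2 -0.21 ± 0.13 and missed the threshold (adjusted p = 0.292).

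Slc7a7 (y+LAT1, chromosome 14, 54369442 to 54420068, minus strand), which exports cationic amino acids, gave 16.8, 19.6 and 32.5 CPM as lowest, median and highest in the young, 14.6, 24.7 and 41.1 CPM in the saline and 30.8, 38.0 and 50.6 CPM in the MCC950 group. All 8 MCC950 libraries were above the saline median, and saline replicate 5 was the one saline library inside the MCC950 range. Slc7a7 rose 1.63-fold with MCC950 (log2 0.70 ± 0.18, edgeR adjusted p = 0.0149). It shares 232 exon bases with Oxa1l on the other strand.

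Slc7a8 (LAT2, chromosome 14, 54722215 to 54781886, minus strand), a basolateral exchanger of neutral amino acids, gave 51.7, 71.7 and 81.0 CPM in the young, 61.1, 70.4 and 87.9 CPM in the saline and 81.6, 108 and 152 CPM in the MCC950 group. Here 7 of 8 MCC950 libraries lay above all saline libraries, and all 8 above all young ones. Slc7a8 rose 1.498-fold with MCC950 against saline (log2 0.58 ± 0.11, edgeR adjusted p = 0.00314), the smallest adjusted p of the 10 genes in that comparison.

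Slc1a1 (EAAC1, chromosome 19, 28835135 to 28913960, plus strand), the brush-border carrier of glutamate and aspartate, gave 21.4, 37.1 and 75.8 CPM in the young, 19.1, 32.5 and 49.4 CPM in the saline and 32.6, 61.3 and 74.2 CPM in the MCC950 group. Except for replicate 7, the treated libraries all exceeded the saline maximum, and none exceeded the young maximum. Slc1a1 rose 1.73-fold with MCC950 against saline (log2 0.79 ± 0.23, edgeR adjusted p = 0.0246). It shares 2631 exon bases with 4430402I18Rik on the other strand.

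Counts over the list of 10 come next. Between young and saline, 2 of 10 rose (Slc3a2 and Slc7a5) and 0 fell, where 12.2% of all genes tested rose and 12.4% fell. In both risen genes the groups did not overlap, as was so in the higher direction for 4.51% of all genes. The other 8 ranged from log2 -0.28 (Slc1a1) to 0.19 (Slc7a7), and the median of the 10 was log2 0.07, against 0.02 over all genes. Of the 19 proximal tubule markers 0 rose and 1 fell (Gatm, log2 -0.44, named after its value was seen), with a median of log2 -0.27, and their summed level did not pass an exact permutation test (log2 difference -0.20, p = 0.508, two-sided, 6 against 7). B and plasma cell markers moved with the same contrast: 4 of 6 rose, and their summed level went from 39.2 to 133 CPM in the young to 394 to 540 CPM in the saline group, none of the 6 at 0. Macrophage and myeloid markers rose in 2 of 6 and summed to 327 to 1566 and 1206 to 2965 CPM. T cell markers rose in 3 of 6, with sums of 2.52 to 10.8 CPM in young and 6.90 to 15.6 CPM in saline libraries, and 2 of the 6 were at 0 in some young library. Podocyte markers fell in 11 of 12, with sums that did not overlap between the groups (exact permutation p = 0.00117), and endothelial markers fell in 6 of 6, from 384 to 697 CPM in young to 176 to 321 CPM in saline libraries. The part of these shifts in the result for Slc3a2 and Slc7a5 was not tested.

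With MCC950 against saline, 6 of 10 rose (Slc6a18, Slc3a2, Slc7a7, Slc7a8, Slc7a9 and Slc1a1) and 0 fell, where 11.9% of all genes rose and 4.86% fell. In none of the 10 were the groups free of overlap, as they were for 1.15% of all genes in the higher direction. The median of the 10 was log2 0.73, against 0.00 over all genes. The proximal tubule markers moved the same way, with 14 of 19 higher, 0 lower and a median of log2 0.97, and their summed level was higher with MCC950 by log2 0.95 (exact permutation p = 0.00187, two-sided, 7 against 8). Podocyte markers were higher in 5 of 12 and lower in 0, with a median of log2 0.50. Their summed level did not pass the same test (log2 difference 0.23, exact permutation p = 0.139). Of the 6 B and plasma cell markers 1 was lower. The share of mitochondrial counts was lower by 13.2 percentage points (exact permutation p = 0.000622). The part of these shifts in the transporters' result was not tested. Without saline replicate 3, 4 or 7 the count of risen genes was 3, with Slc3a2, Slc7a9 and Slc1a1 past the threshold no longer. With all libraries thinned to equal counts outside the mitochondrial genes, Slc3a2 gave log2 0.13 (edgeR adjusted p = 0.343) and Slc7a9 log2 0.75 (adjusted p = 0.0863).

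MCC950 libraries were also set against the young ones, a comparison that shares its MCC950 libraries with the one above and its young libraries with the age comparison. Of the 10 genes 7 rose here: Slc6a18 (log2 0.77 ± 0.26), Slc6a19 (0.94 ± 0.35), Slc3a2 (0.60 ± 0.07), Slc7a7 (0.89 ± 0.20), Slc7a8 (0.64 ± 0.12), Slc7a9 (0.94 ± 0.29) and Slc7a5 (0.45 ± 0.14), and 0 fell, where 21.8% of all genes rose and 16.5% fell. The groups did not overlap for Slc3a2 and Slc7a8, as was so for 3.28% of all genes in the higher direction. Slc3a1 gave log2 0.65 ± 0.29, Slc1a1 0.51 ± 0.24 and Slc7a13 0.25 ± 0.34, none past the threshold. In the same contrast 12 of 19 proximal tubule markers were higher, and their summed level differed by log2 0.75 (exact permutation p = 0.0160). Podocyte markers were lower in 11 of 12 and endothelial markers in 6 of 6, and the mitochondrial share was lower by 12.9 percentage points (exact permutation p = 0.00999). The part of these shifts was not tested. Without young replicate 1, the young library with the highest tubule marker level, Slc3a1 (log2 0.96, edgeR adjusted p = 0.00880) and Slc1a1 (log2 0.78, adjusted p = 0.00816) also passed, as they did without MCC950 replicate 7 (adjusted p = 0.0489 and 0.0456). Without young replicate 3 the count fell to 4, and Slc6a19 kept its call in 8 of the 21 fits that left out 1 library.

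**Figure D2:**
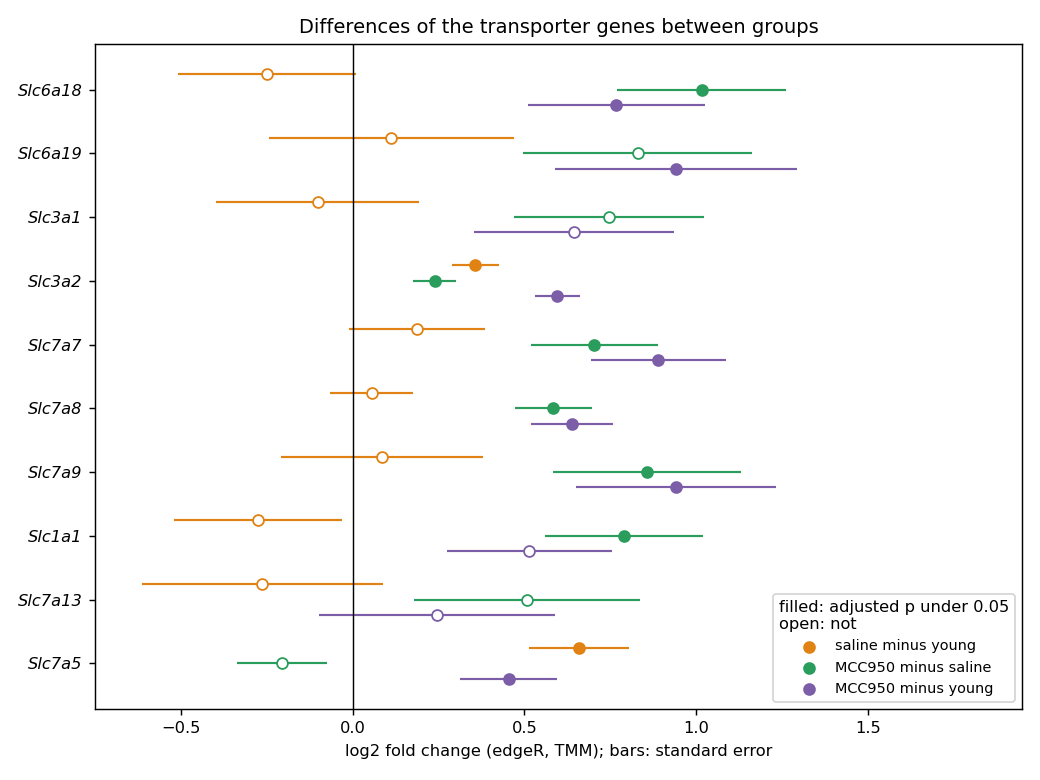
Log2 fold change with its standard error (x axis) for the 10 genes in the 3 comparisons, filled where the adjusted p was under 0.05. From young to saline 2 genes are filled, from saline to MCC950 6, and from young to MCC950 7, and every filled point lies to the right of 0.

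To set the transporters against the other tubule genes, counts were also fitted relative to the summed counts of the 19 tubule markers in place of library size. On this scale MCC950 against saline moved the median of all genes by log2 -0.97, and 85.6% of all genes were lower and 0.269% higher. On it 8 of the transporters gave values between log2 -0.51 (Slc7a13) and 0.02 (Slc6a18), and none of these passed the threshold. Slc3a2 (log2 -0.70 ± 0.25, edgeR adjusted p = 0.0133) and Slc7a5 (log2 -1.11 ± 0.31, adjusted p = 0.00345) fell relative to the markers, as most genes did. With Lrp2 and Cubn alone as the reference, Slc7a13 passed the threshold (log2 -0.57, edgeR adjusted p = 0.0415). A value near 0 on this scale means that a gene kept pace with the marker sum. In the per-library ratios Slc1a1 had 10.2 ± 0.84 counts per 1000 marker counts in saline (SD, n = 7) and 9.27 ± 0.64 in MCC950 libraries (n = 8), and Slc6a18 had 18.0 ± 2.70 and 18.3 ± 3.16. Slc7a13 had 23.3 ± 5.95 and 16.4 ± 4.78, Slc7a8 had 23.2 ± 6.55 and 17.6 ± 3.23, and Slc3a2 had 32.2 ± 9.62 and 19.8 ± 7.24.

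**Figure D3:**
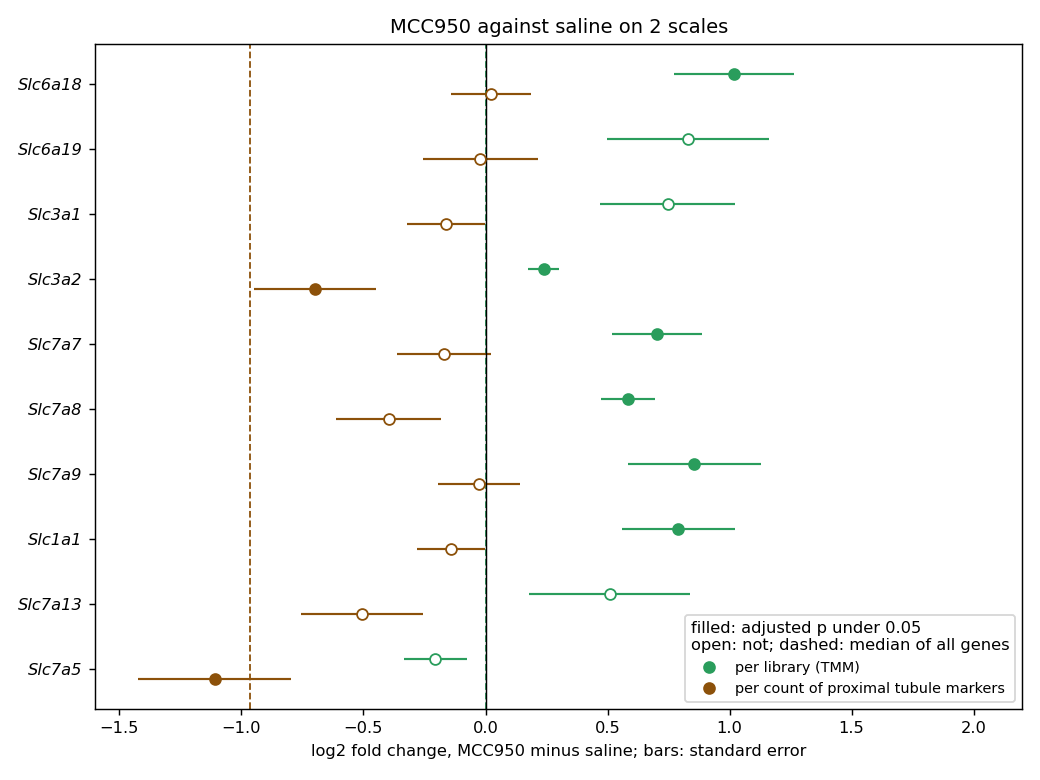
MCC950 against saline for the 10 genes as log2 fold change with standard error (x axis), on the library scale and relative to the summed proximal tubule markers, filled where the adjusted p was under 0.05. Relative to the markers, 8 of the genes lie between -0.51 and 0.02 and are open, while Slc3a2 (-0.70) and Slc7a5 (-1.11) lie nearer to the median of all genes (-0.97, dashed).

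On the same scale, saline against young gave 0 called genes of the 10, where 1.72% of all genes were higher and 0.69% lower. Slc3a2 gave log2 0.53 ± 0.27 (edgeR adjusted p = 0.354) and Slc7a5 log2 0.83 ± 0.34 (adjusted p = 0.237). MCC950 against young also gave 0 of 10, where 53.9% of all genes were lower and 1.34% higher.

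Libraries of 1 group also differed among themselves. After the group mean was subtracted, the log2 CPM of the 8 genes other than Slc3a2 and Slc7a5 had pairwise Pearson r from 0.03 (Slc7a8 with Slc7a13) to 0.93 (Slc3a1 with Slc1a1), with a median of 0.69 over 28 pairs and 21 libraries. Their r with the tubule marker level ran from 0.55 (Slc7a8) to 0.98 (Slc1a1). Slc3a2 had r = -0.06 and Slc7a5 r = -0.62 with that level. With the macrophage and myeloid marker level Slc7a5 had r = 0.78, while those 8 genes ran from -0.79 (Slc6a18) to -0.32 (Slc7a8) and Slc3a2 had 0.34. Slc3a2 had r = 0.57 with the T cell, 0.44 with the B and plasma cell and -0.55 with the endothelial marker level, and Slc7a5 had 0.48, 0.31 and 0.00. With the endothelial level those 8 genes also ran negative, from -0.64 (Slc7a7) to -0.21 (Slc7a13). With the podocyte marker level they ran from -0.58 (Slc1a1) to -0.34 (Slc7a13), while Slc3a2 had -0.44 and Slc7a5 0.08. These values describe 21 libraries whose genes share depth, composition and sorting, and carry no test.

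**Figure D4:**
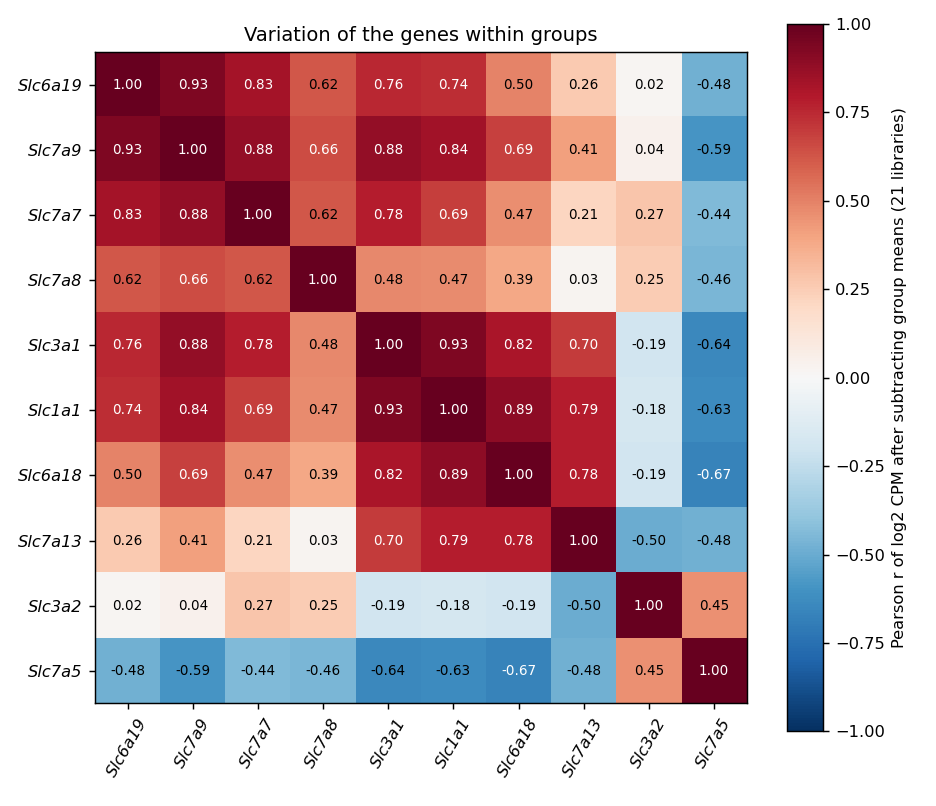
Pearson r between the 10 genes over 21 libraries after subtracting group means (color scale from -1 to 1). Slc6a19, Slc7a9, Slc7a7, Slc3a1 and Slc1a1 have values from 0.69 to 0.93 with each other. High values also lie outside these 5, as for Slc1a1 with Slc6a18 (0.89) and with Slc7a13 (0.79). The row of Slc7a5 is negative with 8 genes and 0.45 with Slc3a2.

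By the same r, the nearest among all other genes was found for each. Slc6a18 was nearest to the brush-border protease Mep1a (r = 0.95), Slc6a19 to the lactate carrier Slc5a12 (0.94), Slc3a1 to the glucuronosyltransferase Ugt1a7c (0.99) and Slc7a7 to Fbp2, an enzyme of gluconeogenesis (0.92). Slc7a9 was nearest to the glutathione transferase Gstt2 (0.99), Slc1a1 to the epoxygenase Cyp2j5 (0.99), Slc7a13 to the organic anion carrier Slc17a3 (0.96) and Slc7a8 to the scaffold Dlg3 (0.85). Slc3a2 was nearest to the corepressor Sin3b (0.84) and Slc7a5 to the heme-regulated repressor Bach1 (0.88).

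Because a light subunit needs its heavy partner, the ratio of their levels per kilobase was taken in each library, a choice made after the values had been seen. Slc7a9 to Slc3a1 lay between 0.235 and 0.493 over all libraries, with medians of 0.312 in the young, 0.353 in the saline and 0.342 in the MCC950 group. Slc7a5 to Slc3a2 had medians of 0.0745, 0.0902 and 0.0592, and its MCC950 against saline difference was log2 -0.47 (exact permutation p = 0.00342, two-sided). Slc7a8 to Slc3a2 had medians of 0.634, 0.507 and 0.634, a difference of log2 -0.30 from young to saline (exact p = 0.0140) and of 0.34 from saline to MCC950 (exact p = 0.0137). Slc7a7 to Slc3a2 differed by log2 0.52 from saline to MCC950 (exact p = 0.0155). Over the 18 tests made on 6 ratios none passed after Benjamini-Hochberg adjustment, the smallest adjusted p being 0.0559 (exact permutation tests). In a mixed fraction the genes of a ratio need not come from the same cells. With the tubule marker level Slc3a2 had r = -0.06, against 0.74 for Slc7a7, 0.55 for Slc7a8 and -0.62 for Slc7a5. The part of cell composition in the ratios to Slc3a2 was not tested.

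**Figure D5:**
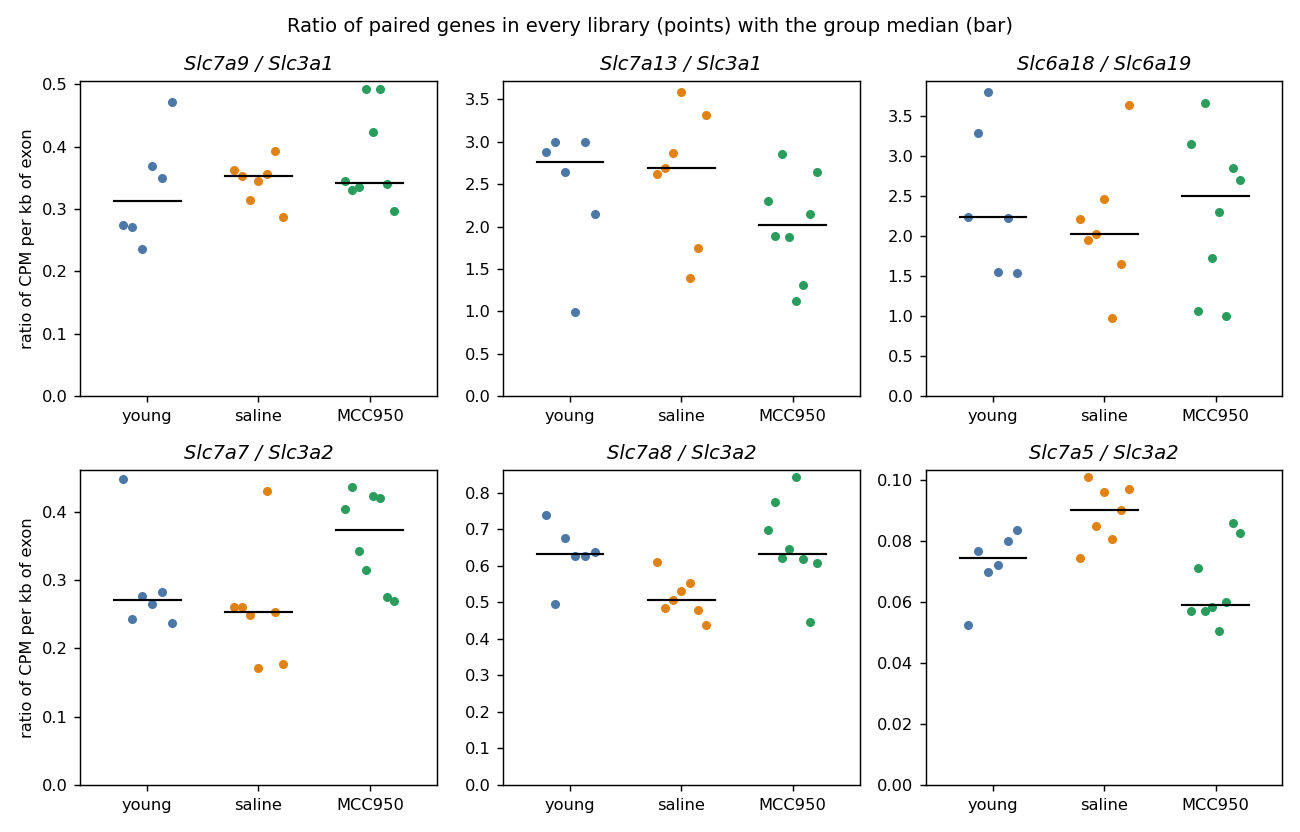
Ratio of CPM per kb (y axis, linear, from 0) for 5 pairs of light and heavy subunit and for Slc6a18 to Slc6a19, each point 1 library and each bar a group median. The Slc7a5 to Slc3a2 median goes from 0.0745 in the young to 0.0902 in saline and 0.0592 in MCC950 libraries, and the groups overlap in all 6 panels.

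Partners of these carriers were looked at next. Cltrn (collectrin), which brings Slc6a19 and Slc6a18 to the brush border, fell by 0.64 on the log2 scale from young to saline (SE 0.23, edgeR adjusted p = 0.0468), with medians of 170 and 120 CPM. With MCC950 against saline Cltrn rose (log2 0.73 ± 0.22, edgeR adjusted p = 0.0259), as did the brush-border scaffolds Pdzk1 (1.17 ± 0.21, adjusted p = 0.00183) and Slc9a3r1 (0.55 ± 0.12, adjusted p = 0.00602). For Pdzk1, every MCC950 library (135 to 276 CPM) lay above every saline library (56.7 to 134 CPM). These are also genes of the proximal tubule, and the marker values given above apply to them as well. Per 1000 marker counts, Cltrn had 51.2 ± 3.79 in young (SD, n = 6), 38.9 ± 5.01 in saline (n = 7) and 33.9 ± 2.70 in MCC950 libraries (n = 8). In the fit on that scale Cltrn was not called from young to saline. In saline and MCC950 libraries Slc9a3r1 had 20.2 ± 3.63 and 15.4 ± 2.73, while Pdzk1 had 28.5 ± 3.12 and 33.4 ± 2.32. Collecting duct markers fell in 4 of 6 from young to saline (median log2 -0.63), where 12.4% of all genes fell. The part of that shift in the Cltrn result was not tested.

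Amino acid carriers outside the list were counted in the same fits. Of 32 such genes, 28 were tested, and from young to saline 4 rose, where 12.2% of all genes did, and 0 fell, with a median of log2 -0.02. The risen ones were Slc43a1, a large neutral amino acid carrier (log2 1.92 ± 0.56), the cystine-glutamate exchanger Slc7a11 (1.82 ± 0.43) and the glutamine carrier Slc38a1 (0.74 ± 0.18), and the fourth was the lysosomal Slc38a9 (0.35 ± 0.09). Slc43a1 had 0 to 5 counts in the young and 15 to 42 in the saline libraries and passed the filter only through the older groups. Slc7a11 and Slc43a1 were scarce, with young medians of 0.48 and 0.14 CPM and saline medians of 1.13 and 0.37 CPM. With MCC950 against saline 6 rose, where 11.9% of all genes did, and 2 fell, where 4.86% did, with a median of log2 0.05. The largest rises were in Slc38a4 (log2 1.11 ± 0.26), Slc1a4 (1.02 ± 0.28) and the GABA and taurine carrier Slc6a13 (0.94 ± 0.22), and the falls were in the cationic amino acid carrier Slc7a1 (-0.34 ± 0.09) and Slc38a9 (-0.30 ± 0.09). From young to MCC950 4 rose, where 21.8% of all genes did, and 2 fell, where 16.5% did, with a median of log2 0.18. The 4 risen genes were Slc43a1 (1.59 ± 0.55), Slc7a12 (1.58 ± 0.51), Slc6a13 (0.93 ± 0.24) and the aromatic amino acid carrier Slc16a10 (0.52 ± 0.07). The 2 that fell were Slc36a4 (-0.67 ± 0.18) and Slc7a1 (-0.37 ± 0.09). Slc43a1 and Slc7a12 were scarce, with 0 to 5 and 0 to 14 counts in young libraries and MCC950 medians of 0.32 and 0.62 CPM. Slc43a1 passed the filter only through the older groups, and the part of the MCC950 group in keeping Slc7a12 was not checked. Neither call is support for a rise of these carriers.

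Genes that answer to amino acid shortage through ATF4 were listed too. Of 8 such genes 1 rose and 0 fell in each comparison, where 12.2%, 11.9% and 21.8% of all genes rose, so the count is no result about the list. The risen ones were enzymes of serine synthesis, named after their values were seen: Phgdh from young to saline (log2 0.73 ± 0.21, edgeR adjusted p = 0.0153) and Psat1 from saline to MCC950 (log2 0.82 ± 0.17, adjusted p = 0.00412) and from young to MCC950 (log2 0.55 ± 0.18, adjusted p = 0.0180). The medians of the 8 were log2 0.06 from young to saline, 0.16 from saline to MCC950 and 0.22 from young to MCC950.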

How the data were processed

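RNA from 21 nephrin-antibody sorted kidney cortex fractions was measured as raw read counts per gene. Per the labels, the authors trimmed reads with Trim Galore, aligned them with Bowtie2 and counted them with featureCounts, on a build given as GRCm38 and mm10; versions and strand setting were not given in the sources used here. The deposited counts carry gene numbers, of which 25275 of 27179 were named through RefSeq. No count column was left unassigned to a sample (0).

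Genes were filtered and scaled with edgeR 4.0.16 (filterByExpr, TMM) and tested with its quasi-likelihood test over all 3 groups together, with Benjamini-Hochberg adjustment over the 16377 genes tested and a threshold of 0.05. Levels are CPM, and levels between genes CPM per kilobase of GENCODE vM21 exon. The second scale used the summed counts of 19 proximal tubule markers as library size. Single values were compared with exact permutation tests (scipy 1.17.1), two-sided. Promoter sequences and gene positions are from RefSeq, GRCm38.p6.

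The genes and lists were chosen with earlier results of these data known. All 10 genes are named in each comparison; of the other carriers, the 3 largest rises and falls past the threshold, with the remaining rise added in 2 comparisons after its value was seen; and for each of the 10 the gene with the highest r. The study describes each library as coming from a single mouse, and the titles of the young libraries each carry a different number. Its methods list fewer archived control mice of the young age than there are young libraries. They do not say whether the sequenced young mice were among those. The p-values measure the spread between libraries. Alternatives were RLE size factors, DESeq2 1.42.0, no filter, no mitochondrial genes, counts outside mitochondrial genes thinned to 5804891 per library, fits of 2 groups, the replicate number as a block, a 2-fold threshold on unadjusted p, Lrp2 and Cubn as the tubule reference, and leaving out each library. The scripts were tested on simulated counts. No library pair agreed within sampling noise (lowest chi-square per degree of freedom 16.7). A gene of the partner list is not reported here.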

Additional observations from a re-analysis of the deposited data

Results flagged for a closer look

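In 6 of 30 groups of libraries (10 genes in 3 groups) 1 library stood apart by Dixon's test on CPM. Chance flags about 1 in 20 where values are normally spread and groups independent. Here 8 of the genes varied together within groups (median r of 0.69), so the flags are not independent and the 2 rates cannot be compared directly. In young replicate 1 these were Slc3a1 (70.4 CPM), Slc7a7 (32.5 CPM) and Slc7a9 (22.8 CPM), each the highest of the young, and that library also had the highest young proximal tubule marker level (6929 CPM, the next being 4055 CPM). In saline replicate 5 they were Slc6a19 (83.1 CPM) and Slc7a7 (41.1 CPM), and its marker level was the highest of the saline group (4959 CPM, the next being 4710 CPM). In MCC950 replicate 5 it was Slc7a8 (152 CPM), at the second highest marker level of its group (8175 CPM). The part of the marker level in these values was not tested.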

How the results depend on the processing

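From young to saline, Slc3a2 and Slc7a5 rose in all 21 fits that left out 1 library, and the count of risen genes was 2 to 2; on the 2-fold threshold it was 0, since both changed by less than that. From saline to MCC950 the count ran from 3 to 8 when 1 library was left out (3 without saline replicate 3, 4 or 7) and was 1 on the 2-fold threshold; DESeq2 and the replicate block added Slc3a1 (adjusted p = 0.0365 and 0.00646). From young to MCC950 it ran from 4 to 9 and was 0 on the 2-fold threshold; fitted on those 2 groups alone, Slc6a18 (adjusted p = 0.0533) and Slc7a5 (adjusted p = 0.0591) missed the threshold.

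Values that were not called changed sign with single libraries left out: from young to saline Slc6a19 (-0.22 to 0.34), Slc3a1 (-0.32 to 0.21), Slc7a8 (-0.026 to 0.10), Slc7a9 (-0.14 to 0.33) and Slc7a13 (-0.49 to 0.12), and from young to MCC950 Slc7a13 (-0.011 to 0.63), all log2. Relative to the tubule markers, MCC950 against saline ran from -0.032 to 0.077 for Slc6a18, from -0.15 to 0.13 for Slc6a19 and from -0.10 to 0.048 for Slc7a9, and Slc6a18 gave -0.023 with Lrp2 and Cubn as reference; 2 to 4 genes were lower, and 4 without saline replicate 5. Ratios that changed sign were Slc7a13 to Slc3a1 from young to saline (-0.13 to 0.25), Slc6a18 to Slc6a19 from saline to MCC950 (-0.10 to 0.22) and from young to MCC950 (-0.25 to 0.017), and Slc7a8 to Slc3a2 from young to MCC950 (-0.030 to 0.12).

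Genes higher and lower over the whole table moved by more than 1.5 times with thinning (1273 and 1123 from young to saline, 792 and 515 from saline to MCC950, 1988 higher from young to MCC950) and with the 2-fold threshold (661 and 479, 275 and 169, 664 and 707), against 1996 and 2038, 1957 and 796, and 3572 and 2705. DESeq2 gave 1226 lower from saline to MCC950. Leaving out 1 library gave 1353 to 2270 higher and 1638 to 2403 lower from young to saline, 1008 to 2392 and 515 to 1007 from saline to MCC950, and 2556 to 3725 and 2468 to 3001 from young to MCC950. Of the other carriers, those lower from young to saline numbered 1 with RLE size factors, thinning, 2 groups or the block, 2 with DESeq2 and 0 to 2 with a library left out; on the 2-fold threshold 2 were higher from young to saline, 0 lower from saline to MCC950, and 2 higher and 0 lower from young to MCC950. From young to MCC950, 4 were lower with RLE or DESeq2, 3 to 7 higher and 2 to 4 lower with a library left out. The cause of these shifts was not tested.

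Replicate numbers are shared between groups, but same-numbered libraries did not deviate together throughout (r of -0.06 to 0.35 over 6 pairs, -0.14 to 0.33 over 7 and -0.01 to 0.40 over 6). Replicate 1 gave 0.35 for young with saline, 0.29 for saline with MCC950 and 0.40 for young with MCC950. Whether a shared number marks more than a label is not settled. With the replicate block, Slc7a5 was lower from saline to MCC950 (log2 -0.29, making 1 lower), Slc6a19 was higher (log2 0.97), and the uncalled young to saline values of Slc3a1 (0.027) and Slc7a13 (0.042) changed sign. Relative to tubule markers the block gave 1 gene higher from young to saline, 4 lower from saline to MCC950, where Slc6a19 (0.0051) and Slc7a9 (0.030) changed sign, and 1 higher and 1 lower from young to MCC950; of the other carriers 8 were then higher from young to MCC950. On the library scale the block also took Slc3a1 (edgeR adjusted p = 0.00349) and Slc1a1 (adjusted p = 0.00241) past the threshold from young to MCC950.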
